A study of Mus musculus with 15 samples.

Results

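Chemokines are small secreted or membrane-tethered proteins that bind receptors on leukocytes and direct where those cells move. Some are made steadily by tissue cells and hold resident cells in place, while others are switched on by interferon, tumour necrosis factor or microbial sensors and draw monocytes, T cells and NK cells. In the testis the seminiferous epithelium is an immune-privileged site, and macrophages are the main leukocytes of the interstitium. The 10 chemokine genes described here, Ccl2, Ccl5, Ccl7, Ccl8, Cxcl9, Cxcl10, Cxcl12, Cxcl13, Cxcl16 and Cx3cl1, were taken by their Entrez gene IDs from a table of 23510 gene IDs, and all 10 were matched.

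RNA was sequenced from 15 testis libraries of ICR mice, an outbred stock, in 5 groups of 3. Per the study's methods, mice were 5 weeks old when lentivirus was injected into the testis, and testes were taken 10 days later. The groups M1, M3 and M5 received a mixture of lentiviral shRNAs against the muscarinic acetylcholine receptor genes Chrm1, Chrm3 and Chrm5, and MNC received the control virus. Con is labelled only as control, and the labels do not say whether these testes were injected, so the 12 libraries of MNC, M1, M3 and M5 are called injected here and what Con testes received is not known. The virus was injected into whole testis, and no promoter that restricts the shRNA to a cell type was given. No label says whether the 3 libraries of a group came from separate animals, so p-values measure the spread between these libraries.

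Values are FPKM, fragments scaled to the length of the gene and to the number of fragments mapped in that library, so that levels can be set side by side between genes. The smallest steps between low values gave relative depths of 0.976 to 1.01. That estimate used only genes whose values lay near whole multiples of a step shared by all libraries. Genes that would show unequal depth were thus left out, so it cannot tell whether depth was equal. The absolute depth is unknown. The targeted transcripts lay at 0.17 FPKM or below for Chrm1, at 0.11 or below for Chrm3 and at 0.43 or below for Chrm5 in all 15 libraries, and at 0.113 ± 0.025 (Chrm1 in M1), 0.077 ± 0.035 (Chrm3 in M3) and 0.320 ± 0.087 (Chrm5 in M5; SD, n = 3 each) in their own knockdown groups, so they do not check the labels. In MNC these transcripts were at 0.107 ± 0.006 (Chrm1), 0.037 ± 0.023 (Chrm3) and 0.363 ± 0.115 (Chrm5). No target was thus lower in its own knockdown group than in MNC beyond the spread. These are RNA levels near the floor and do not measure protein. The study reported less M5 receptor protein in testis after the Chrm5 shRNAs, by immunofluorescence and Western blot. M5 replicate 3 stood apart from the other injected libraries. It had the highest level of 8 of the 10 chemokines among the 12 injected libraries. It also ranked first among all 15 libraries in the summed level of most gene lists used below. These included macrophage (356 FPKM), Leydig (3190), Sertoli (722), peritubular myoid (104), endothelial (16.9) and red blood cell markers (491) and interferon-stimulated genes (171). It did not rank first for germ cell (rank 11), other chemokine (10), adipocyte (8), epididymal (7), T and NK cell (5) and neutrophil (2) lists. The hormone gene Insl3, which marks the Leydig cells of testis, was at 488 to 2382 FPKM in the 15 libraries.

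The 10 genes lie in a few clusters of the mouse genome (GRCm38.p6). Ccl2 (chr11:82035577-82037452) and Ccl7 (chr11:82045712-82047525) are separated by 8.26 kb, with no other RefSeq gene between them, and Ccl8 (chr11:82115185-82116799) lies 67.7 kb beyond Ccl7. Ccl5 (chr11:83525778-83530518) and Cxcl16 (chr11:70454389-70459984) are on the same chromosome. Cxcl9 (chr5:92321331-92328079) and Cxcl10 (chr5:92346638-92348889) are 18.6 kb apart, again with no RefSeq gene between them, and Cxcl13 (chr5:95956939-95961068) is farther along chromosome 5. Cxcl12 (chr6:117168535-117181368) and Cx3cl1 (chr8:94772180-94782427) are the only members on their chromosomes. Cxcl10 overlaps Art3 and Cxcl16 overlaps Zmynd15, both expressed in testis, and Ccl5 and Cx3cl1 overlap the predicted genes Gm32650 and Gm51543. Whether the counting used strand was not stated, so reads of the overlapping parts cannot be told apart. Art3 was at 154 to 160 FPKM in Con, where Cxcl10 was at 0.11 FPKM or below. Zmynd15 was at 63.5 to 65.8 FPKM in Con and at 50.5 to 69.7 in injected libraries. In the same libraries Cxcl16 was at 0.93 to 1.68 and at 1.41 to 4.55. The part of such overlapping reads in the Cxcl16 values was not tested.

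RefSeq promoter windows, 250 bases before to 50 after the start, matched 6 of the 10 genes: Cxcl9, Cxcl10, Cxcl13, Cxcl12, Cx3cl1 and Ccl8. The motifs searched, on both strands, were the interferon-stimulated response element written as TTTCNNTTTC, the gamma-activated sequence written as TTCNNNGAA, the NF-kB consensus, and the TATA box written as TATAAA. Of 32851 promoter windows, 3.44% held the first, 8.3% the second, 8.46% the third and 13.6% the last. Below are the 220 bases before the start of 3 chemokines whose levels were higher in injected testis and of Cxcl12, whose level was not, since they show how differently these starts are built. Capitals mark the motif letters.
Cxcl10 (chr5:92348890-92349109, minus strand): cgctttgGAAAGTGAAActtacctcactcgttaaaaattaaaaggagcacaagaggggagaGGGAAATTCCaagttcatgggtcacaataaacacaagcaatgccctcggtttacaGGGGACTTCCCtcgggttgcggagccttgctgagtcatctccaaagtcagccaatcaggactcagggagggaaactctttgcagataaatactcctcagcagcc
Cxcl9 (chr5:92328080-92328299, minus strand): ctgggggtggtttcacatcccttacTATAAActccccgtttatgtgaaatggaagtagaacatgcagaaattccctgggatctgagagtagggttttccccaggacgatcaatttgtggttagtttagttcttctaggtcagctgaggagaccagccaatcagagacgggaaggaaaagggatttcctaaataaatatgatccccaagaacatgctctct
Ccl8 (chr11:82114965-82115184, plus strand): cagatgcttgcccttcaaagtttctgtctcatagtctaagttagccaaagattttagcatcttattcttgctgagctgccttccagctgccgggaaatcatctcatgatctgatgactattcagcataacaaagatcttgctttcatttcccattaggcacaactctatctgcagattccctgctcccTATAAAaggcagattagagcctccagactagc
Cxcl12 (chr6:117168315-117168534, plus strand): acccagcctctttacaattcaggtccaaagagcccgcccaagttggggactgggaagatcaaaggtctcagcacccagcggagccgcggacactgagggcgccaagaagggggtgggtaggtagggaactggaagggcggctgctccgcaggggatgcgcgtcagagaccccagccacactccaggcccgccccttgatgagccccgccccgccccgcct
The Cxcl10 window held 1 response element at -213 to -204 and 3 NF-kB matches at -159 to -150, -104 to -95 and -103 to -94, of which the last pair overlap. The Ccl8 window held a TATA box at -32 to -27, the Cxcl9 window held TATAAA only at -195 to -190, and the Cxcl12 window held none of the 4 motifs. Of the windows not shown, that of Cxcl13 held TATAAA at -46 to -41. That of Cx3cl1, whose level was not higher in injected testis, held it at -6 to -1. Only the Cxcl10 window had response element or NF-kB matches. Whether motifs go with levels was not tested. A match is a description of these letters in these windows, not of binding.

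In every injected library 7 chemokines were higher than in any Con library: Ccl2, Ccl5, Ccl7, Ccl8, Cxcl9, Cxcl10 and Cxcl13. Of all 22960 genes above 0 in any library, 4.52% showed that pattern. In limma's test of the injected groups against Con, 6 of the 9 chemokines tested were higher at an adjusted p under 0.05 and none was lower, where 11.8% of the 14514 genes tested were higher and 22.4% lower. Of all calls 34.6% were higher, and 70.4% were after centring each library on its median, which kept the 6 chemokine calls. Only genes whose FPKM averaged at least 1 across all libraries entered that test. Cxcl13, at a mean of 0.309, did not enter. Ccl2, Ccl7, Cxcl9 and Cxcl10 entered only through the injected libraries, since their Con means were below 1, so the count of 6 is a description, and Ccl7 was just inside at 1.12. In bulk RNA, more cells of a type and more RNA per cell cannot be told apart.

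**Figure D1:**
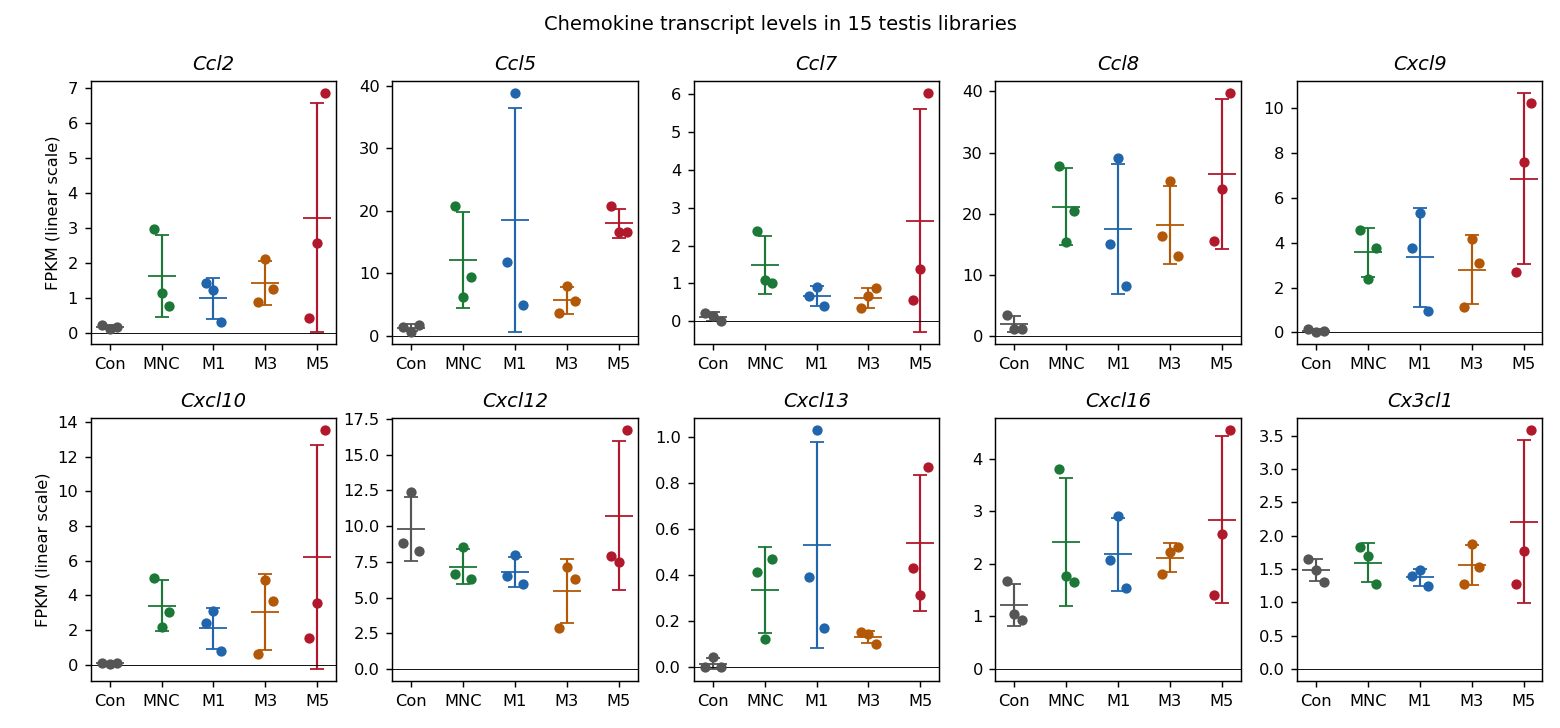
Level of each chemokine in FPKM (vertical axis, linear, scaled separately per gene) in the 5 groups (horizontal axis). Points are single libraries, and bars are the mean ± SD of 3 libraries. Con lies below every injected library for 7 genes, while Cxcl12, Cxcl16 and Cx3cl1 overlap, and M5 replicate 3 is the highest point of the panel for 8 genes, all but Ccl5 and Cxcl13.

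The ligands of Cxcr3, a receptor of activated T cells and NK cells, showed the widest ratios. Cxcl9 is known as an interferon-gamma-induced ligand. It was at 0.15, 0.01 and 0.08 FPKM in Con, at 4.56, 2.40 and 3.77 in MNC, at 3.79, 5.32 and 0.94 in M1, at 1.14, 4.17 and 3.11 in M3 and at 2.71, 7.63 and 10.25 in M5. The lowest injected library, M1 replicate 3, was thus above every Con library, and the mean level of the injected libraries was 51.9 times that of Con (92.2 times without Con replicate 1). The difference was 2.09 on the log2(FPKM + 1) scale (SE 0.372, limma adjusted p = 0.00153), and the exact permutation test over 455 splits of 12 against 3 libraries gave p = 0.0022, the smallest it can give. Cxcl10, its neighbour on the chromosome and a ligand of the same receptor, was at 0.11, 0.04 and 0.08 FPKM in Con, at 5.02, 2.19 and 3.03 in MNC, at 2.41, 3.10 and 0.78 in M1, at 0.61, 4.88 and 3.67 in M3 and at 1.52, 3.54 and 13.55 in M5. The groups did not overlap, and the spread within M5 covered most of the range of the injected libraries. The ratio of mean levels was 48.2, and the difference was 1.87 on that scale (SE 0.466, limma adjusted p = 0.00897, exact permutation p = 0.0022). Because 1 was added before the logarithm, both differences understate the ratios.

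Ccl5, which is made by activated T cells, NK cells and other cells, was at 1.47, 0.68 and 1.79 FPKM in Con and at 20.83, 6.15 and 9.34 in MNC. It was at 11.88, 38.86 and 4.86 in M1, at 3.65, 7.94 and 5.50 in M3 and at 20.73, 16.66 and 16.62 in M5. M1 was the widest group, with an SD of 17.9 FPKM against 2.15 in M3 and 2.36 in M5, and the highest library was M1 replicate 2. The mean was 10.3 times that of Con, with a difference of 2.41 on the log2(FPKM + 1) scale (SE 0.446, limma adjusted p = 0.00189, exact permutation p = 0.0022). Ccl8, a monocyte chemoattractant protein that in mouse acts through Ccr8, had the highest mean of the 10 chemokines over the 12 injected libraries, although the mean of Ccl5 was higher in M1. It was at 3.54, 1.23 and 1.27 FPKM in Con, at 27.79, 15.38 and 20.44 in MNC, at 15.13, 29.12 and 8.30 in M1, at 16.33, 25.37 and 13.06 in M3 and at 15.56, 24.14 and 39.73 in M5. Even the lowest injected library, M1 replicate 3, was above the highest Con library, and the 4 injected groups overlapped each other throughout. The ratio of means was 10.4 (16.7 without Con replicate 1), and the difference was 2.84 on that scale (SE 0.351, limma adjusted p = 0.000222, exact permutation p = 0.0022).

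Ccl2 and Ccl7 are ligands of Ccr2, the receptor by which monocytes leave the bone marrow and enter tissue. Ccl2 was at 0.21, 0.11 and 0.16 FPKM in Con, at 2.97, 1.14 and 0.77 in MNC, at 1.42, 1.22 and 0.32 in M1, at 0.88, 2.11 and 1.26 in M3 and at 0.43, 2.58 and 6.87 in M5. Ccl7 was at 0.23, 0.15 and 0 in Con, at 2.38, 1.09 and 1.02 in MNC, at 0.67, 0.92 and 0.41 in M1, at 0.34, 0.66 and 0.87 in M3 and at 0.56, 1.39 and 6.03 in M5. Both were higher in every injected library than in Con, with M5 replicate 3 far above the rest. The ratios of means were 11.4 and 10.8, and that of Ccl7 was 18.2 without Con replicate 1. The differences were smaller on the log2 scale, 1.10 for Ccl2 (SE 0.388, limma adjusted p = 0.0437, exact permutation p = 0.0242) and 0.90 for Ccl7 (SE 0.325, limma adjusted p = 0.0484, exact permutation p = 0.0396). These are the calls nearest the threshold. Of 23 other settings of the same comparison, Ccl2 lost its call in 14 (adjusted p from 0.00659 to 0.135) and Ccl7 in 19 (0.00599 to 0.145), while Ccl5, Ccl8, Cxcl9 and Cxcl10 kept theirs in all 23. Leaving out Con replicate 1, 2 or 3 in turn ended the calls of Ccl2 and Ccl7, with 4 of the 9 chemokines called each time. Leaving out M5 replicate 3 kept all 6, at 0.95 for Ccl2 and 0.74 for Ccl7, but the genes tested were not chosen anew, and Ccl7 would not enter at its mean of 0.764 FPKM without that library.

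Of the other 4 chemokines, Cxcl13 was too low to be tested and Cxcl16, Cxcl12 and Cx3cl1 did not pass. Cxcl13, which draws B cells through Cxcr5, was listed at 0, 0.04 and 0 FPKM in Con, at 0.41, 0.12 and 0.47 in MNC, at 0.39, 1.03 and 0.17 in M1, at 0.15, 0.14 and 0.10 in M3 and at 0.43, 0.31 and 0.87 in M5. It was low everywhere but above Con in all 12 injected libraries (exact permutation p = 0.0242), and no fold is given against a group listed mostly at 0. Without Con replicate 1, 2 or 3 in turn its permutation p rose to at most 0.0659. Cxcl16, a membrane-tethered ligand of Cxcr6, was at 1.68, 1.05 and 0.93 FPKM in Con, at 3.81, 1.76 and 1.65 in MNC, at 2.08, 2.91 and 1.54 in M1, at 1.80, 2.23 and 2.31 in M3 and at 1.41, 2.56 and 4.55 in M5. In 9 of 12 injected libraries it was above the highest Con library, and its mean was 1.95 times that of Con. The difference of 0.58 on the log2(FPKM + 1) scale (SE 0.230) missed the threshold in limma's test (adjusted p = 0.069), passed it after median centring (0.68, limma adjusted p = 0.0298) and had an exact permutation p of 0.0264.

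Cxcl12, the ligand of Cxcr4 that stromal cells make steadily and that holds stem and progenitor cells in place, was the most abundant of the 10 in Con. It was at 8.79, 12.37 and 8.26 FPKM in Con, at 6.68, 8.53 and 6.27 in MNC, at 6.54, 7.98 and 5.94 in M1, at 2.89, 7.14 and 6.28 in M3 and at 7.91, 7.51 and 16.75 in M5. In 10 of the 12 injected libraries it was below the lowest Con library, while M5 replicate 3 was above all others. The difference from Con was -0.40 on the log2 scale (95% interval -0.92 to 0.12, limma adjusted p = 0.204), and it was -0.49 without M5 replicate 3 (limma adjusted p = 0.0598). Cx3cl1, the membrane-tethered ligand of Cx3cr1 on monocytes and macrophages, was at 1.65, 1.49 and 1.31 FPKM in Con, at 1.83, 1.69 and 1.27 in MNC, at 1.40, 1.49 and 1.24 in M1, at 1.28, 1.87 and 1.53 in M3 and at 1.27, 1.77 and 3.59 in M5. Apart from M5 replicate 3 its levels covered a narrow range, and the interval of its difference from Con ran from -0.26 to 0.43 (limma adjusted p = 0.694).

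The order of levels therefore differed between Con and injected testis. In Con the mean levels fell from Cxcl12 (9.81 ± 2.24 FPKM, SD, n = 3) to Ccl8 (2.01 ± 1.32), Cx3cl1 (1.48 ± 0.170), Ccl5 (1.31 ± 0.571) and Cxcl16 (1.22 ± 0.403), and the last 4 overlapped. Ccl2 (0.160 ± 0.050), Ccl7 (0.127 ± 0.117), Cxcl9 (0.080 ± 0.070), Cxcl10 (0.077 ± 0.035) and Cxcl13 (0.013 ± 0.023) followed, with overlapping neighbours. In the 12 injected libraries Ccl8 led (20.9 ± 8.71 FPKM), before Ccl5 (13.6 ± 10.04), Cxcl12 (7.54 ± 3.24), Cxcl9 (4.15 ± 2.64), Cxcl10 (3.69 ± 3.41), Cxcl16 (2.38 ± 0.958), Ccl2 (1.83 ± 1.78), Cx3cl1 (1.69 ± 0.643), Ccl7 (1.36 ± 1.57) and Cxcl13 (0.383 ± 0.298). Each neighbour in this order overlapped the next within its SD. Summed over the 10 genes, levels ran from 13.9 to 17.8 FPKM in Con and from 24.5 (M1 replicate 3) to 119 (M5 replicate 3) in injected testis.

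**Figure D2:**
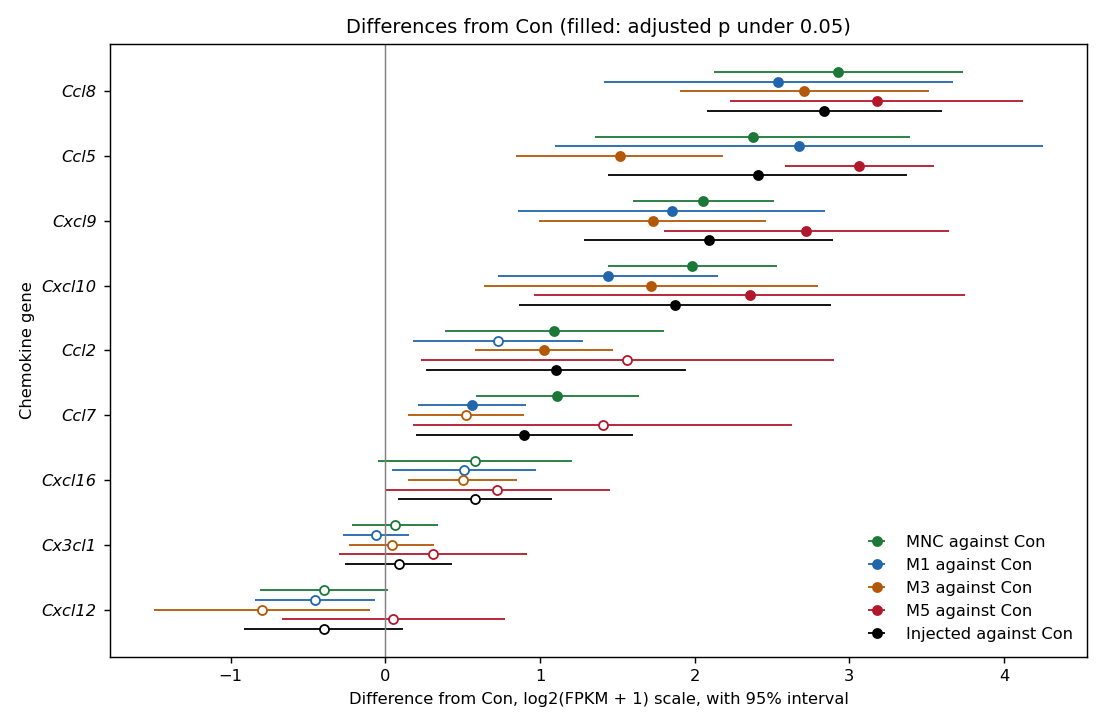
Difference of each group from Con on the log2(FPKM + 1) scale (horizontal axis) for the 9 chemokines tested (vertical axis), with 95% intervals from limma. Filled circles passed an adjusted p of 0.05, and all groups share the same 3 Con libraries. Ccl8, Ccl5, Cxcl9 and Cxcl10 are filled in every comparison, and Cxcl16, Cx3cl1 and Cxcl12 in none.

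The control virus was compared with Con to see which chemokines differed without a receptor knockdown. In MNC 6 of the 9 chemokines tested were higher, where 8.03% of all genes tested were. They were Ccl8 (2.93, limma adjusted p = 0.0158), Ccl5 (2.37, adjusted p = 0.0237), Cxcl9 (2.06, adjusted p = 0.0111), Cxcl10 (1.99, adjusted p = 0.0158), Ccl7 (1.11, adjusted p = 0.0266) and Ccl2 (1.09, adjusted p = 0.0464). The knockdown groups share their Con libraries with MNC and with each other, so their values are set side by side. In M1, Ccl8 differed from Con by 2.54, Ccl5 by 2.67, Cxcl9 by 1.85, Cxcl10 by 1.44 and Ccl7 by 0.56 on the log2 scale, and these 5 passed (10.3% of all genes were higher). In M3, Ccl8 (2.71), Ccl5 (1.52), Cxcl9 (1.73), Cxcl10 (1.72) and Ccl2 (1.03) passed (7.01% of all genes). In M5, Ccl8 (3.18), Ccl5 (3.06), Cxcl9 (2.72) and Cxcl10 (2.35) passed (9.32% of all genes), while Ccl2 (1.56) and Ccl7 (1.40) did not, at limma adjusted p-values of 0.0925 and 0.0985. As above, Ccl2, Ccl7, Cxcl9 and Cxcl10 entered these fits only through the injected libraries. The counts of MNC, M1, M3 and M5 against Con are therefore descriptions too. Groups of 3 cannot give an exact permutation p below 0.1.

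These counts rested on few libraries. Without Con replicate 1 or 2 the count fell from 6 to 1 or 3 in MNC, from 5 to 1 or 2 in M1 and from 5 to 0 in M3 in both cases, and without Con replicate 3 it was 2 in M3. Without M1 replicate 1 it was 1 in M1, and without M3 replicate 1 it was 2 in M3. In M5 the count fell from 4 to 3 without Con replicate 1, 2 or 3 or M5 replicate 2, and was 7 without M5 replicate 1 and 5 without M5 replicate 3. The 7 chemokines named above were higher than Con in every library of MNC, M1 and M5, and in M3 Cxcl16 joined them, where 12.4%, 11.5%, 14.8% and 9.95% of all genes above 0 did so.

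The knockdown groups were also compared with MNC, which received virus without a receptor shRNA. None of the 9 chemokines passed in M1, M3 or M5 against MNC by limma, nor between any pair of the knockdown groups. In M5 against MNC 5.65% of all genes tested passed and in M5 against M1 6.75%, while the shares were 0.0138% in M5 against M3, 0.00689% in M3 against MNC and 0 in the others. At an unadjusted p under 0.05 the count of chemokines was 1 in M3 against MNC and 1 in M5 against M3, and 0 in the other 4 comparisons. The first was Ccl7, at -0.59 in M3 against MNC on the log2 scale (95% interval -1.16 to -0.03, limma adjusted p = 0.518), and it was -0.55 in M1 against MNC (-1.11 to 0.01, limma adjusted p = 0.819). The second was Ccl5, which differed by 1.55 in M5 against M3 (95% interval 0.99 to 2.11, limma adjusted p = 0.286). All 3 M5 libraries of Ccl5 were above all 3 M3 libraries, as they were for Cxcl12 and Cxcl13, where 12% of all genes did so. In the other direction, all 3 libraries of Ccl7 were below all of MNC in M1 and in M3, as were 6.45% and 9.59% of all genes, and Cxcl13 was below M1 in M3, as were 5.48%.

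The absence of a call is not evidence that these groups were alike. The intervals of Ccl5 ran from -0.23 to 1.61 in M5 against MNC, from -1.90 to 0.18 in M3 against MNC and from -1.52 to 2.12 in M1 against MNC. Those of Cxcl9 ran from -0.34 to 1.67, from -1.17 to 0.51 and from -1.30 to 0.89 in the same comparisons. Without MNC replicate 1, 1 chemokine passed in M5 against MNC.

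Other chemokine ligands were taken from a fixed list. Of 26 listed genes 25 were in the table and 8 were tested, with 2 higher and 1 lower in injected testis and a median difference of 0.17, against -0.10 over all genes tested. The shares over all genes tested were 11.8% higher and 22.4% lower. Ccl12, a mouse monocyte chemoattractant of the cluster with Ccl2, was at 0.27 to 0.43 FPKM in Con and 0.81 to 9.14 in injected libraries (1.24, limma adjusted p = 0.0114). Ccl17, a ligand of Ccr4, was at 0.43 to 1.62 and 2.03 to 4.38 (1.29, adjusted p = 0.000216). Pf4, a platelet chemokine, was lower, at 2.78 to 4.65 and 0.53 to 4.02 (-0.70, adjusted p = 0.0257). The median of the 9 member genes tested was 1.10.

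Of the 18 chemokine receptor genes 7 were tested and 3 were higher, with a median of 0.35. Among them, Ccr2, the receptor for Ccl2 and Ccl7, was at 0.34 to 0.57 FPKM in Con and 1.03 to 6.90 in injected libraries (1.42, limma adjusted p = 0.00516). Cxcr6, the receptor for Cxcl16, was at 0.17 to 0.26 and 0.84 to 3.28 (1.13, adjusted p = 0.00213). The receptors of Cxcl12 and Cx3cl1 did not pass: Cxcr4 was at 2.67 to 2.78 FPKM in Con and 1.61 to 3.12 in injected libraries, and Cx3cr1 at 2.54 to 3.54 and 1.69 to 8.03. Cxcr3 itself stayed below the filter, at 0.03 to 0.10 FPKM in Con and 0.19 to 1.49 in injected libraries. Cxcr3 and Cxcr4 were named here after their values were seen. Of the 5 atypical receptors 1 was tested and of the 6 proteases that cut or shed chemokines 4 were, with no call in either list. Without M5 replicate 3, 3 of the proteases were lower, but calls over all genes also rose, from 4962 to 6470. Of those 6470 calls 28.4% were higher.

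Of 15 cytokines and transcription factors upstream of inducible chemokines 10 were tested, 4 higher and 2 lower. Of all genes tested 11.8% were higher and 22.4% lower, so the lower count did not exceed the share over all genes. Irf1 (1.27, limma adjusted p = 0.0134), Irf7 (1.26, adjusted p = 0.00199) and Stat2 (0.52, adjusted p = 0.0253), factors that carry interferon signals to genes, were among those higher, and Irf3 and Rela were lower at -0.29 and -0.27. Ifng, which encodes interferon-gamma, was listed at 0 in all 3 Con libraries and at 0.07 to 0.38 FPKM in the injected ones, and did not enter the test. Of 20 interferon-stimulated genes 18 were in the table, 12 were tested and 9 were higher, with a median of 0.93 and with Gbp2 (1.88), Irgm1 (1.77), Igtp (1.49) and Gbp3 (1.35) the most changed, all encoding interferon-inducible GTPases. Their summed level was 21.9 to 24.0 FPKM in Con and 27.9 to 171 in injected libraries.

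Markers of other cells moved with the chemokines. Of 12 T and NK cell markers 11 were in the table, 6 were tested and 5 were higher, with a median of 1.22. Nkg7, Cd3g, Thy1 and Gzmb had Con means below 1 and entered only through the injected libraries, so this count and median are a description too, and the same holds for Ccl12, Ccl17, Ccr2, Cxcr6, Gbp2, Igtp, Gbp3, Ifit3, Ly6c2, Fcgr1, Hbb-bs and Jchain. Nkg7 of cytotoxic cells was at 0 to 0.16 FPKM in Con and 0.98 to 4.68 in injected libraries, and Cd3g of the T cell receptor complex at 0 to 0.04 and 0.64 to 3.68. Cd3d was the exception, at 6.82 to 7.88 and 5.83 to 9.54. The summed level of this list was 8.63 to 10.3 FPKM in Con and 13.0 to 33.8 in injected libraries. Of 12 macrophage and monocyte markers 11 were tested and 3 were higher, with a median of 0.56: Ly6c2 (1.40, limma adjusted p = 0.0255), C1qb (0.80, adjusted p = 0.0147) and Fcgr1 (0.59, adjusted p = 0.0379). Mrc1, of tissue-resident macrophages, had a difference of -0.31 that did not pass (adjusted p = 0.0963), and it was lower in M1 (-0.46, adjusted p = 0.00835) and M3 (-0.58, adjusted p = 0.0281) against Con. Csf1r was lower in M3 (-0.45, adjusted p = 0.0472). Without M5 replicate 3, 1 macrophage marker was lower in injected testis. Mrc1 and Csf1r were named after their values were seen. The summed levels of the macrophage and monocyte list overlapped between Con and injected libraries, at 82.0 to 107 and 79.5 to 356 FPKM.

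Con also differed from the injected groups in some lists that concern tissue content. The epididymal markers summed to 21.7 to 47.6 FPKM in Con and to 0.75 to 32.4 in injected libraries, and both epididymal genes tested were lower, Crisp1 at -2.87 (limma adjusted p = 0.00416) and Spink8 at -1.58 (adjusted p = 0.0254). Of 6 peritubular myoid markers 3 were lower, among them Acta2 (-0.52, adjusted p = 0.00114). So were 1 of 7 Leydig cell markers, Lhcgr (-1.11, adjusted p = 0.00522), and 1 of 8 Sertoli cell markers, Amh (-0.60, adjusted p = 0.0206). Of all genes tested 22.4% were lower and 11.8% higher, so the Leydig and Sertoli counts did not exceed the share over all genes. Without M5 replicate 3 the Sertoli count was 6, but calls over all genes also rose, from 4962 to 6470. Of those 6470 calls 28.4% were higher and the rest lower. Of 10 germ cell markers 4 were higher and 2 lower, with Prm2 of spermatids at 1.27 (adjusted p = 0.00103). Of 5 red blood cell markers tested 2 were higher, among them Hbb-bs (3.01, adjusted p = 0.0113), while in MNC against Con Hba-a1 was lower (-1.45, adjusted p = 0.0251). This list was highest in M5, where it summed to 148 to 491 FPKM against at most 98.9 in any other library, and 3 of its 5 genes were higher in M5 against MNC, with a median of 3.04. The M5 chemokine values come from these same libraries, and the part of that difference in them was not tested. Of 2 B and plasma cell markers tested 1 was higher, Jchain (1.65, adjusted p = 0.011). Of 4 adipocyte markers tested 1 was higher, Adipoq (0.38, adjusted p = 0.0279), and the list median was -0.17. None of 6 endothelial markers and not the 1 neutrophil marker tested passed. Their part in the chemokine values was not tested.

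In MNC against Con, 11 of 12 interferon-stimulated genes, 5 of 10 upstream factors, 5 of 6 T and NK cell markers, 2 of 11 macrophage markers, 1 of 7 receptors and 2 of 8 other ligands were higher. Each of these 6 counts fell to 0 in at least 1 other setting, and 8.03% of all genes tested were higher in MNC. Some genes counted here entered only through the injected libraries, as named above, so these counts are descriptions too. In injected testis against Con, the interferon count ran from 6 to 12 and the T and NK cell count from 3 to 8 over all settings.

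**Figure D3:**
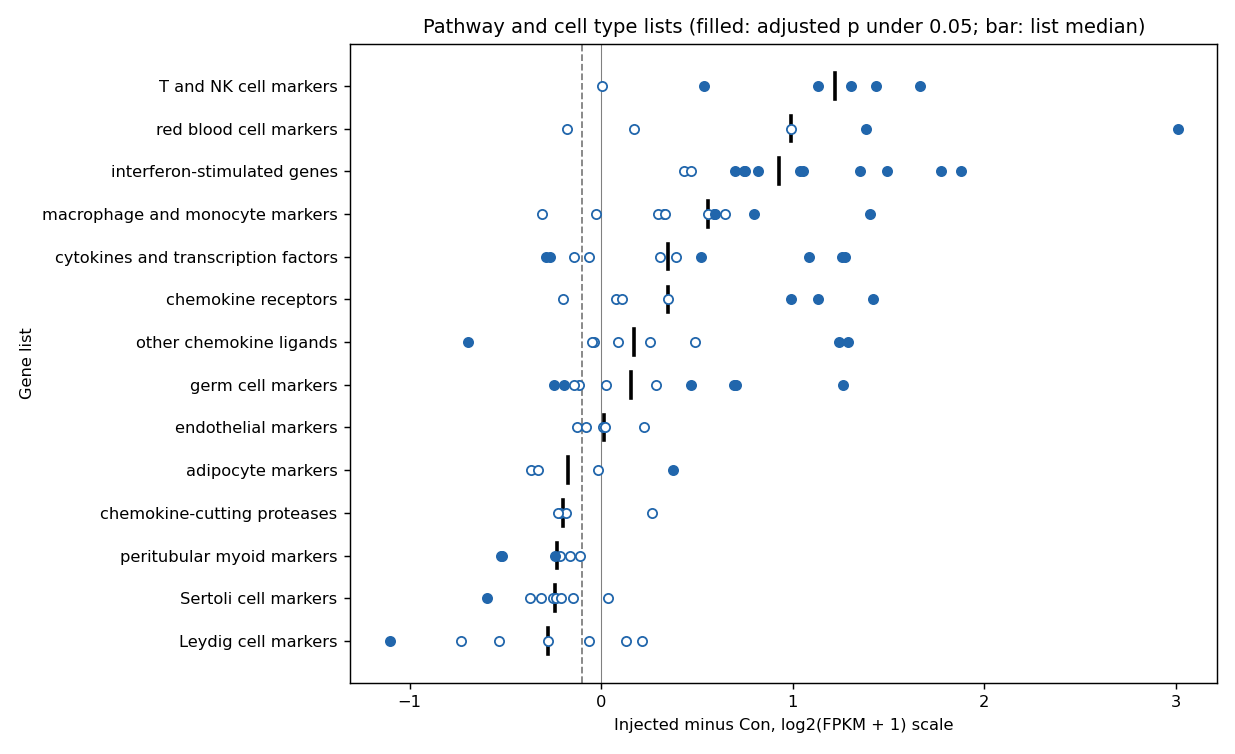
Difference of injected libraries from Con on the log2(FPKM + 1) scale (horizontal axis) for each tested gene of the lists with at least 4 genes tested (vertical axis). Filled points passed an adjusted p of 0.05, black bars are list medians, and the dashed line is the median of all genes tested, -0.10. T and NK cell markers and interferon-stimulated genes lie mostly to the right of it, and Leydig, Sertoli and peritubular markers mostly to the left.

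Among the 12 injected libraries all 45 pairs of the 10 chemokines had a positive Pearson r, from 0.268 to 0.930 with a median of 0.735, and 30 pairs passed after adjustment (19 by Spearman rho). These relations, 75 in all and adjusted together, were chosen after values had been seen, and each was computed on log2(FPKM + 1) with permutation p-values. The shared sign did not hold without M5 replicate 3, where r was -0.134 for Cxcl13 with Cx3cl1 and 0.030 for Ccl2 with Cxcl13. Over all 12 libraries rho was -0.067 for Cxcl13 with Cx3cl1. How often other gene pairs reach such values was not tested. Ccl5 ran with the summed T and NK cell markers, at Pearson r = 0.981 and Spearman rho = 0.986 (permutation p = 1e-05, the smallest 100000 permutations can give, adjusted p = 0.00075 for both). The value was 0.971 without the 2 libraries farthest from the median, and 0.981 on deviations from the group means. With the summed interferon-stimulated genes Ccl5 had r = 0.549 and rho = 0.524 (permutation p = 0.0621 and 0.0823, adjusted 0.0817 and 0.108).

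Ccl2, Ccl7, Cxcl9 and Cxcl10 ran with the summed interferon-stimulated genes, but this was not particular to them. With that list 8 of the 10 chemokines passed by Pearson r and 6 by Spearman rho. Cx3cl1 had r = 0.863 and rho = 0.834 (permutation p adjusted to 0.0013 and 0.00894). Cxcl16 had 0.839 and 0.72 (adjusted 0.00253 and 0.0283), and Cxcl12 had 0.773 and 0.65 (adjusted 0.0144 and 0.0545). Pearson r was 0.922 for Ccl2 (rho 0.867, permutation p = 5e-05 and 0.00054, adjusted 0.0009 and 0.00675), 0.929 for Ccl7 (rho 0.881, p = 3e-05 and 0.00031, adjusted 0.00075 and 0.00555), 0.919 for Cxcl9 (rho 0.783, p = 6e-05 and 0.00357, adjusted 0.0009 and 0.0144) and 0.915 for Cxcl10 (rho 0.734, p = 8e-05 and 0.00872, adjusted 0.000964 and 0.0283). Without the 2 farthest libraries r was 0.789, 0.891, 0.831 and 0.783, and on deviations from group means 0.968, 0.888, 0.913 and 0.941. With the T and NK cell markers r was 0.471 for Ccl2, 0.481 for Ccl7, 0.768 for Cxcl9 and 0.531 for Cxcl10 (rho 0.503, 0.552, 0.783 and 0.517), and of these Cxcl9 passed after adjustment (permutation p = 0.00311 and 0.00383, adjusted 0.00648 and 0.0144) while the others had adjusted p-values of 0.0868 to 0.134. Whether 2 such correlations differ was not tested. The 2 values of a point share its library and its tissue content, and M5 replicate 3 is the highest point for the interferon list.

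The macrophage markers passed with all 10 chemokines by Pearson r (0.743 to 0.903) and with 6 by Spearman rho, Ccl5 among them (r 0.743, rho 0.874, permutation p = 0.00401 and 0.00037, adjusted 0.00791 and 0.00555). M5 replicate 3 is the highest point for this list too. Without it, r ran from 0.512 (Cx3cl1) to 0.903 (Ccl5). Without the 2 farthest libraries r ran from 0.428 (Ccl2) to 0.751 (Ccl5). Ccl8 had r = 0.725 with the T and NK cell markers, 0.820 with the interferon-stimulated genes and 0.836 with the macrophage markers (rho 0.671, 0.608 and 0.783; permutation p for r of 0.00714, 0.00134 and 0.00074, adjusted 0.0125, 0.00387 and 0.00264). Between neighbours on a chromosome, r was 0.886 for Cxcl9 and Cxcl10 (rho 0.825, permutation p = 0.00018 and 0.00163, adjusted 0.0013 and 0.0094) and 0.887 for Ccl2 and Ccl7 (rho 0.692, p = 0.00044 and 0.0152, adjusted 0.00206 and 0.0368). Without the 2 farthest libraries the first was 0.771 and the second 0.591, and the second was 0.734 without M5 replicate 3. Between Ccl2 and Ccl5, r was 0.352 (rho 0.406, permutation p = 0.266 and 0.193, adjusted 0.27 and 0.223).

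**Figure D4:**
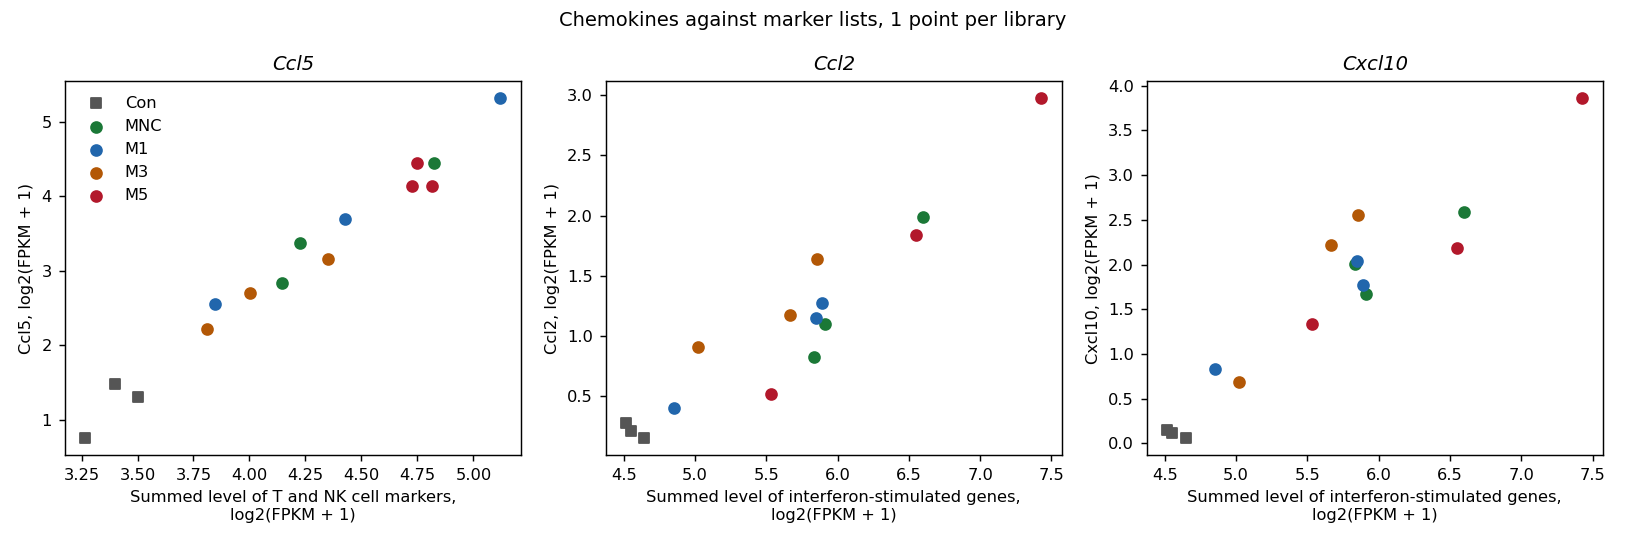
Ccl5 against the summed T and NK cell markers, and Ccl2 and Cxcl10 against the summed interferon-stimulated genes, all as log2(FPKM + 1), with 1 point per library. Squares are Con and circles the injected groups, and the r values of 0.981, 0.922 and 0.915 are over the 12 circles only. The circle at the upper right of the middle and right panels is M5 replicate 3.

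Over all 15 libraries, the named genes most like each chemokine by Pearson r, of 13604 named genes, are given as a description, since Con and injected libraries lie apart and set much of r. For Ccl5 they were Nkg7 (0.974), Cd3g (0.968) and Septin1 (0.964), and over the 12 injected libraries alone these had r of 0.953, 0.940 and 0.952. For Cxcl10 they included Igtp (0.972) and Serpina3g (0.970), and for Cxcl9 they were Serpina3f (0.979), Iigp1 (0.977) and Serpina3g (0.968). For Ccl2 they included Serpina3i (0.964) and Psmb10 (0.950), and for Ccl7 they were Parp14 (0.970), Ccl12 (0.967) and Trex1 (0.960). For Ccl8 they were Cd74 (0.970), the invariant chain of MHC class II, Iigp1 (0.936) and Il2rg (0.935), which over the injected libraries alone had r of 0.836, 0.784 and 0.903. For Cxcl16 they were Trex1 (0.948), Themis2 (0.928) and Phf11b (0.913). For Cxcl12 they were Twsg1 (0.960), Elovl5 (0.953) and Cox14 (0.946), and for Cx3cl1 Tmco4 (0.946), Tspan4 (0.939) and Syk (0.930).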

How the data were processed

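The authors deposited 1 table of FPKM values, given to 2 decimals. Per the study's methods, poly(A) RNA was read on an Illumina HiSeq and SOAPaligner placed the reads on reference genes. The submitters' processing notes name the build mm10. Without counts, no count model could be fitted. Groups followed the sample titles. For M5 replicate 2 the description points to the column of another M5 library, and the title was followed. The extraction text mentions sperm, whereas all other labels say testis. IDs were named through RefSeq (GRCm38.p6), matching 21143 of 23510; of 183 symbols listed, 178 were in the table.

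Values were analysed as log2(FPKM + 1) for 14514 genes with a mean FPKM of at least 1, with limma 3.58.1 (trend) in R 4.3.3, 2 groups per fit and no covariate. Injected against Con was fitted with all 5 groups, as the mean of 4 groups minus Con. Benjamini-Hochberg adjustment ran over all genes tested. Single genes were also compared by two-sided exact permutation tests. The fits were tested on simulated data. The chemokines and lists were chosen with earlier results of these data known. Named from each list were the 4 most changed of those called in injected or MNC against Con, or, with fewer than 2 called, its 2 most abundant; likeness used the top 3 genes. Some genes that these rules name are not reported here. Other settings tried were adding 0.1 in place of 1, a minimum mean of 0.1 or none, median centring, quantile normalization, no trend, a replicate block, pooling all groups in 1 fit (or the injected libraries in 1 group), and dropping each library in turn. Same-numbered libraries were checked for pairing. Python 3.11.15, pandas 2.3.3, numpy 2.4.6 and scipy 1.17.1 were used.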

Additional observations from a re-analysis of the deposited data

How the results depend on the processing

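Of the 12 injected libraries against Con, the 6 calls became 4 to 7 when single libraries were left out. In the comparisons with Con the ranges without 1 library were 1 to 6 for MNC, 1 to 6 for M1, 0 to 4 for M3 and 3 to 7 for M5, and they were 0 to 1 for M5 against MNC and 0 for the other comparisons of injected groups. With the replicate block the count was 1 in MNC and 0 in M3. The numbers do not mark pairs: correlations of deviations ran from -0.399 to 0.193, 5 of 30 above 0.1, and a library correlated best with its own number in 18 of 60 checks. In M1 the count was 2 with no filter and 3 with all 5 groups in one fit, which also gave 3 in M3. Centring on the median moved the share of all calls that were higher in injected testis from 34.6% to 70.4%, since the median of all genes lay at -0.10 (-0.12 in M1 and -0.13 in M3), and kept the 6 chemokine calls with Cxcl16 added. The sign turned only for values that were not called. After centring, Cx3cl1 in M1 against Con turned to 0.0603, and after quantile normalization Ccl7 in M3 against M1 turned to 0.0344. The others turned when 1 library was left out. Against Con, Cx3cl1 ran from -0.00486 to 0.154 in MNC and from -0.0459 to 0.12 in M3, and Cxcl12 from -0.292 (without M5 replicate 3) to 0.238 in M5. In M1 against MNC, Ccl5 ran from -0.433 to 0.95, Cxcl9 from -0.557 to 0.295 and Cxcl12 from -0.164 to 0.0572. Cxcl9 ran from -0.596 to 0.0398 in M3 against MNC, Ccl7 from -0.329 (without M5 replicate 3) to 0.757 in M5 against MNC, and Ccl5 from -0.261 to 1.12 in M5 against M1. In M3 against M1, Ccl7 ran from -0.155 to 0.0916 and Cxcl9 from -0.624 to 0.246. The causes were not tested. With 3 libraries per group and levels under 1 FPKM in Con, ratios of Cxcl9, Cxcl10, Ccl2 and Ccl7 rest on few fragments, and the depth behind them is unknown.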
